A study of Arabidopsis thaliana with 12 samples.

Results

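Cytochrome P450 monooxygenases were followed in the roots of 4 Arabidopsis thaliana genotypes. A P450 gene was taken as one for which the array annotation gives a single gene with a symbol of CYP, a family number of 2 or 3 digits and a letter, and each gene was read from its probe set of highest mean signal over the 12 arrays. The rule found 23 genes among the 13513 probe sets that name 1 gene, on an array of 22810 probe sets in all. Each of the 23 had 1 such probe set. Of these genes 19 belong to the CYP71B subfamily, and the others are CYP51G2, CYP78A9, CYP79A2 and CYP84A4. The gene table of assembly TAIR10.1 holds 236 P450 symbols of this form, so the 23 are a small share of the family and the other P450 genes are not analysed here.

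Transcript signals were measured in whole roots on single-colour GeneChips, with 3 arrays for each genotype and 20 to 40 plants pooled per sample. The wild type, ws2, is the accession Wassilewskija. The line akt1 carries the akt1-1 allele in Wassilewskija and lacks an inward potassium channel of root cells. The lines cngc1 and cngc4 each lack a cyclic nucleotide-gated cation channel, and the labels give neither an allele nor a background accession for them: for these lines, mutation and accession cannot be told apart. All 12 samples carry the same growth stage code and no treatment is named, and nothing says whether replicates were grown separately, so the p-values speak only of the spread among these arrays.

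Cytochromes P450 are heme-thiolate enzymes that take electrons from a NADPH-dependent reductase and insert an oxygen atom into a substrate. In plants they act in the synthesis and breakdown of hormones, sterols, wall and surface polymers and defence compounds. The CYP71B subfamily belongs to the CYP71 clan, many of its genes lie in tandem rows, and most of its enzymes have no settled substrate. CYP71B6 is among those with one: it oxidises indole-3-acetonitrile, a breakdown product of indole glucosinolates and an intermediate near camalexin synthesis, towards indole-3-carboxylic acid.

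The arrays had been brought to one scale, with median signals of 43.3 to 48.5. The cngc1 replicate 3 array had the highest scanner background (143) and noise (12.9), and its mean correlation with the other cngc1 arrays, 0.954, was the lowest within any group. A repeat mark, of unstated meaning, stands in the titles of 3 arrays: cngc4 replicate 1 and ws2 replicates 2 and 3. Of the root markers listed for this work, the root hair expansins EXPA7 and EXPA18 and the xylem gene GUT2 were above the filter described next. IRX15, also listed for xylem, did not meet that filter and read 2.9 to 30.2 over the 12 arrays. No endodermis marker of the list and no redox partner of the P450s (reductases, cytochrome b5) was named in the annotation used here. The 3 targeted channel genes were not analysed here, and so give no check of the labels.

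Most of the P450 probe sets gave little signal in these roots. Testing required a signal over the array's own 40th percentile, which was 29 to 33.7, on at least 3 arrays. Of the 23 genes 8 met this filter, as did 14745 of all 22746 probe sets other than controls. CYP71B6, CYP71B23, CYP71B29, CYP71B34 and CYP71B37 were above the 40th percentile on all 12 arrays and CYP71B28 on 11. CYP84A4 and CYP51G2 were above it on 4 arrays each, just inside the threshold. CYP71B27 exceeded the 40th percentile on 1 array, with 34.8 on akt1 replicate 1 and 11 to 22.7 on the other 11 arrays. The remaining 14 genes exceeded the 40th percentile on no array. Signals of the 15 untested genes ran from 0.3 to 34.8, and without detection calls no more than a low signal can be stated for them.

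Within the tandem rows, genes that met the filter lay beside genes that did not. The chromosome 3 row from CYP71B16 to CYP71B37 spans 25 annotated genes, of which 18 have P450 symbols and 11 are followed here. Of those 11, CYP71B23, CYP71B34 and CYP71B37 passed the filter and 8 did not. CYP71B23 lies directly next to CYP71B22, which read 10.8 to 31, and CYP71B37 directly next to CYP71B36, which read 0.3 to 1.7. In the chromosome 1 row, CYP71B28 and CYP71B29 are direct neighbours and both passed, while CYP71B27, listed as a transcribed pseudogene, did not. None of CYP71B5, CYP71B30P and CYP71B31, which lie together further along chromosome 3, passed. Because such copies resemble each other, transcript of a neighbour may reach a probe set, which was not tested.

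**Figure D1:**
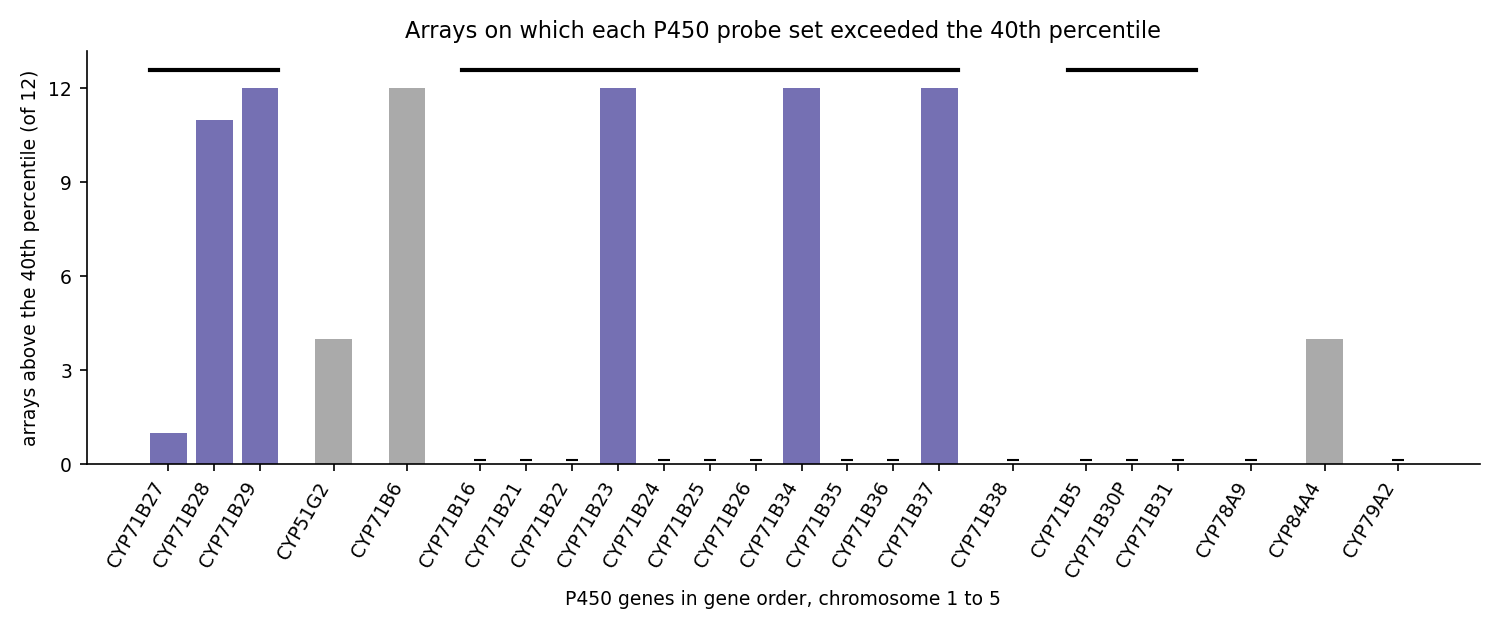
The 23 P450 genes in the gene order of TAIR10.1 (x axis) against the number of the 12 arrays on which each exceeded the 40th percentile (y axis). Violet bars are genes in tandem rows, each row marked by a line above it, grey bars are genes outside them and short dashes mark 0 arrays. In the chromosome 3 row 3 genes reach 12 arrays and the other 8 stay at 0.

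CYP71B6 had its highest signals in cngc4. It read 217.7, 197.7 and 234.8 on the ws2 arrays, 210.6, 197.9 and 166 in akt1, 215.1, 235.7 and 133.6 in cngc1, and 351.6, 343.9 and 263.9 in cngc4. Every cngc4 array lay above every array of the other 3 genotypes, while ws2, akt1 and cngc1 overlapped each other, and cngc1 replicate 3 was the lowest of the 12. Shares of all probe sets, here and below, are of the 14745 that passed the filter. Of all probe sets, 15% had every cngc4 array above every ws2 array, 14.5% above every akt1 array and 11.8% above every cngc1 array. The share above all 3 genotypes at once was not computed. The means were 217 ± 18.6 in ws2, 191.5 ± 23 in akt1, 195 ± 54 in cngc1 and 320 ± 48.6 in cngc4 (SD, n = 3 each).

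Differences were tested with limma on log2(signal + 16), a scale that understates the change of weak probe sets. The fit covered all 14745 probe sets that passed the filter, with Benjamini-Hochberg adjustment over all of them and a threshold of 0.05. Folds, and the 2-fold cut used later, are of signal + 16 and not of the signal itself. CYP71B6 was higher in cngc4 than in akt1 by 0.69 on the log2 scale, with a standard error of 0.18 (1.61-fold, limma adjusted p = 0.029). Against cngc1 it was higher by 0.70 (standard error 0.18, 1.62-fold, limma adjusted p = 0.0393). Against ws2 the log2 fold change was 0.52 (95% interval 0.13 to 0.91), which did not pass (limma adjusted p = 0.0875). The log2 fold changes of cngc1 and akt1 against ws2 were -0.18 and -0.17, and neither passed (limma adjusted p = 0.87 and 0.967). These comparisons share arrays, so they are not independent of each other.

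The calls for CYP71B6 lay close to the threshold. Against ws2 it passed without cngc1 replicate 3 (log2 fold change 0.52, limma adjusted p = 0.0323), with array weights (limma adjusted p = 0.0296) and with only ws2 and cngc4 in the fit (limma adjusted p = 0.0462), and over all 25 alternatives the adjusted p was 0.0296 to 0.576. The call against akt1 did not hold without akt1 replicate 2 or 3 or without cngc4 replicate 1 or 2, where the adjusted p was 0.0905 to 0.126. The call against cngc1 did not hold without ws2 replicate 1 or 2, cngc4 replicate 1 or 2, or cngc1 replicate 3. In those 5 fits the adjusted p was 0.0503 to 0.176, and without cngc1 replicate 3, the array with the highest background, the log2 fold change was 0.47. Both calls were also lost with no filter and with the repeat mark as covariate. The call against cngc1 was lost as well with only cngc1 and cngc4 in the fit. Without the arrays marked as repeats, the log2 fold change was 0.62 against akt1 and 0.63 against cngc1, and neither passed (limma adjusted p = 0.132 and 0.136).

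**Figure D2:**
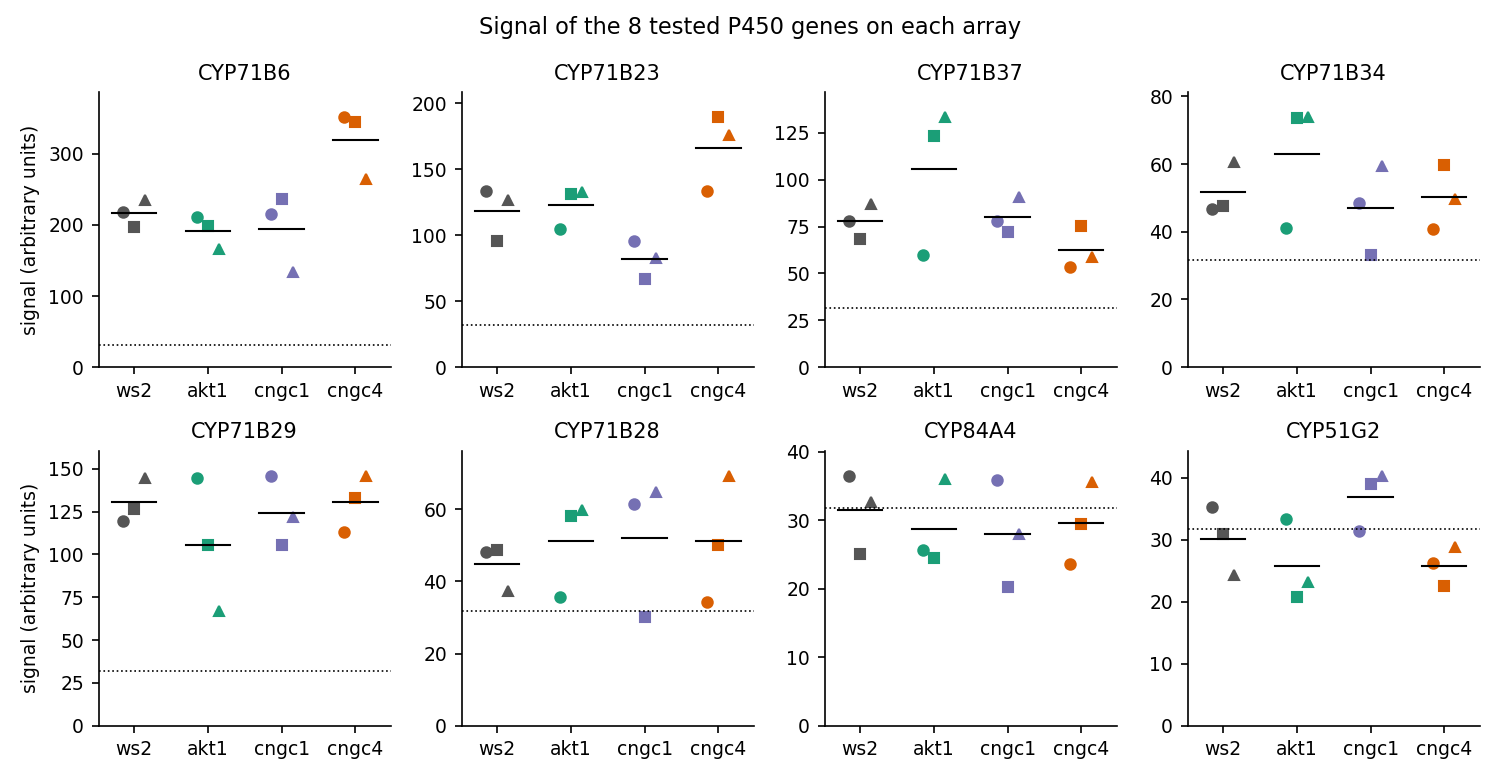
Signal in arbitrary units (y axes, each from 0) of the 8 tested P450 genes by genotype (x axes). Circles, squares and triangles are replicates 1, 2 and 3, bars are means of 3 arrays, and the dotted line is the median over arrays of the 40th percentile. The cngc4 arrays lie above all others for CYP71B6, with 263.9 the lowest, and the CYP71B23 means run from 81.9 in cngc1 to 166 in cngc4.

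CYP71B23, a gene of the chromosome 3 row, separated cngc4 from cngc1 more widely. Its signals were 133.4, 95.5 and 126.7 in ws2, 105.1, 131.4 and 133.2 in akt1, 95.9, 67.1 and 82.6 in cngc1, and 133.4, 189.7 and 176.3 in cngc4. The cngc4 arrays lay above all cngc1 and akt1 arrays, cngc4 replicate 1 reached the same value as ws2 replicate 1, and the cngc1 arrays lay below every array of akt1 and cngc4. Of all probe sets, 5.91% had every cngc1 array below every akt1 array. Every cngc4 array lay above every cngc1 array for 11.8% of them, and above every akt1 array for 14.5%. The means were 119 ± 20.2 in ws2, 123 ± 15.7 in akt1, 81.9 ± 14.4 in cngc1 and 166 ± 29.4 in cngc4 (SD, n = 3 each).

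CYP71B23 was higher in cngc4 than in cngc1 by 0.90 on the log2 scale, with a standard error of 0.16 (1.86-fold, limma adjusted p = 0.007). The wild type lay between them: the log2 fold change against ws2 was 0.44 in cngc4 and -0.46 in cngc1, and neither passed (limma adjusted p = 0.111 and 0.607). Against akt1 it was 0.38 in cngc4 and -0.51 in cngc1, again without passing (limma adjusted p = 0.158 and 0.319). CYP71B23 was also the P450 gene that passed the F test over the 3 mutants (limma adjusted p = 0.0214), which calls 6.34% of all probe sets; CYP71B6 did not (limma adjusted p = 0.0614). The call between cngc4 and cngc1 held in 24 of 25 alternative settings and was lost without cngc4 replicate 2 (log2 fold change 0.80, limma adjusted p = 0.056). Without cngc1 replicate 3 it held.

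Other readings moved with cngc4 and cngc1. For the actin control, the 3-prime signal over the 5-prime signal, a reading of RNA integrity, was 1.42 to 1.54 in cngc1 and 1.64 to 1.94 in cngc4, with no overlap; it was 1.53 to 1.94 in ws2 and 1.58 to 2.06 in akt1. The same ratio for the GAPDH control overlapped, at 1.12 to 1.24 in cngc1, 1.06 to 1.25 in cngc4, 1.03 to 1.09 in ws2 and 1.12 to 1.19 in akt1. The nuclear photosynthesis genes, listed here as markers of shoot tissue, had a summed signal over 11 genes of 1023 to 1483 in cngc4. The sum was 575.6 to 936 in ws2, 598 to 649 in akt1 and 545 to 847 in cngc1, and none of the 11 was at 0 on every array. Of the 10 tested, 7 were higher in cngc4 than in akt1, where 4.54% of all probe sets passed as higher. Against cngc1 2 were higher (LHCB4.1 and PRK), where 3.23% of all did so. Against ws2 2 were higher (LHCB4.1 and CHLM), where 692 of all 14745 probe sets did so. None was lower in these comparisons. LHCB4.3 changed little, with a log2 fold change of 0.15 in cngc4 against ws2 (limma adjusted p = 0.531). LHCB4.1, a light-harvesting protein, read 217.5 to 281.8 in cngc4 and 53.2 to 108.1 on the other 9 arrays. The part of tissue make-up or RNA integrity in the CYP71B6 and CYP71B23 differences was not tested. In whole roots a change in the number of cells that express a gene and a change in RNA per cell cannot be told apart.

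**Figure D3:**
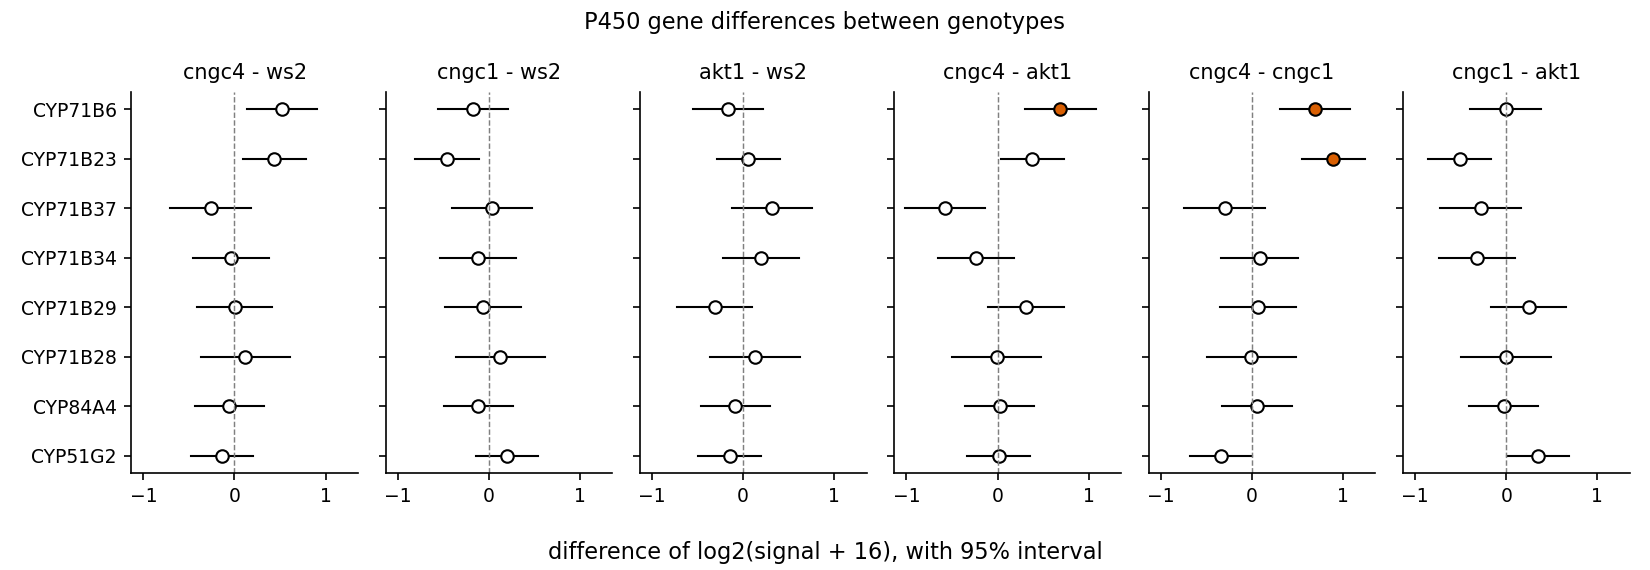
Differences of log2(signal + 16) between genotypes (x axis) for the 8 tested P450 genes (y axis), with 95% intervals from limma. Filled points have an adjusted p under 0.05: CYP71B6 in cngc4 against akt1 and cngc1, and CYP71B23 in cngc4 against cngc1. Open points did not pass, but those of CYP51G2 in comparisons with cngc1 are drawn as values only, with no test read.

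CYP71B37 and CYP71B34, from the far end of the same chromosome 3 row, had their highest means in akt1. CYP71B37 read 77.8, 68.3 and 87.3 in ws2, 59.7, 123.3 and 133.5 in akt1, 77.9, 72 and 90.6 in cngc1, and 53.2, 75.6 and 58.7 in cngc4. The akt1 group was split, with replicate 1 below all ws2 arrays and replicates 2 and 3 above all arrays of the other genotypes. CYP71B34 read 46.6, 47.7 and 60.6 in ws2, 41.1, 73.7 and 73.9 in akt1, 48.6, 33 and 59.3 in cngc1, and 40.9, 59.8 and 49.8 in cngc4, and its akt1 arrays were split in the same way. 

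The chromosome 1 neighbours CYP71B28 and CYP71B29 ranked the 3 akt1 arrays in opposite order. CYP71B28 read 48.1, 48.8 and 37.3 in ws2, 35.6, 58.3 and 59.7 in akt1, 61.4, 30.1 and 64.7 in cngc1, and 34.3, 50.2 and 69.4 in cngc4. CYP71B29 read 119.8, 126.7 and 144.6 in ws2, 144.6, 105.6 and 67 in akt1, 145.9, 105.6 and 121.6 in cngc1, and 113.3, 132.8 and 146.1 in cngc4. On akt1 replicate 1, CYP71B28 had its lowest akt1 signal and CYP71B29 its highest, and for both genes all 4 genotypes overlapped.

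None of CYP71B28, CYP71B29, CYP71B34 and CYP71B37 passed in akt1 against ws2. The log2 fold changes were 0.32 for CYP71B37 (95% interval -0.13 to 0.76), 0.20 for CYP71B34, 0.13 for CYP71B28 and -0.31 for CYP71B29, with limma adjusted p from 0.957 to 0.976. CYP71B37 was lower in cngc4 than in akt1 by a log2 fold change of -0.58 and did not pass (limma adjusted p = 0.0954). Without akt1 replicate 1 that log2 fold change was -0.89 and passed (limma adjusted p = 0.00267). With array weights it was -0.67 and also passed (limma adjusted p = 0.0294). In cngc1 and cngc4 against ws2, the log2 fold changes of CYP71B28, CYP71B29, CYP71B34 and CYP71B37 lay between -0.26 and 0.13, with limma adjusted p of at least 0.472. The widest 95% intervals among them were those of CYP71B28, from -0.37 to 0.61 in cngc4. With 3 arrays a group, any change within that interval remains compatible with the data.

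CYP84A4 and CYP51G2 read near the 40th percentile throughout. CYP84A4, which hydroxylates a cinnamaldehyde-type precursor of the arabidopyrones, read 20.3 to 36.5 over all 12 arrays and overlapped in every comparison. Its log2 fold changes against ws2 lay between -0.11 and -0.06, and the limma adjusted p values were 0.875 or more. CYP51G2, a copy of the sterol demethylase gene that the gene table lists as a transcribed pseudogene, read 35.3, 31 and 24.3 in ws2, 33.4, 20.8 and 23.2 in akt1, 31.4, 39.1 and 40.4 in cngc1, and 26.3, 22.5 and 28.8 in cngc4. The ws2 arrays overlapped those of cngc1 and those of cngc4. The log2 fold change of cngc4 against cngc1 was -0.34. Of the 4 arrays on which CYP51G2 exceeded the 40th percentile, 2 were cngc1 arrays, so without that group, its highest, it would not have met the filter. Its differences from cngc1 are therefore given as values only, and no test of them is read here.

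The untested genes include 3 whose enzymes have a known role. CYP79A2, which makes phenylacetaldoxime on the way to benzylglucosinolate, read 1 to 2.8 over the 12 arrays. CYP71B31, which takes part in linalool oxidation in flowers, read 0.4 to 4.9, with the highest value on cngc1 replicate 3. CYP78A9, a promoter of fruit and seed growth, read 4.5 to 22.4: its 3 cngc1 arrays were 18.7 to 19, within the ws2 range of 4.5 to 22.4. In a fit with no filter, none of the 15 genes had an unadjusted p under 0.05 in any of the 6 comparisons, and their log2 fold changes lay between -0.35 and 0.42. This cannot decide whether the 15 genes differ between genotypes, because the log2 scale used understates the change of weak probe sets. The share of all probe sets under 0.05 in that fit is not given here, so no conclusion is drawn.

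Across comparisons, P450 genes passed in cngc4 against the other mutants, and none passed against ws2. Of the 8 tested genes 1 was higher in cngc4 than in akt1, where 8.88% of all probe sets passed and 4.54% passed as higher in cngc4. An unadjusted p under 0.05 was reached there by 3, CYP71B6, CYP71B23 and CYP71B37, and by 25% of all probe sets. Between cngc4 and cngc1, 2 were higher in cngc4, where 5.17% of all probe sets passed and 3.23% passed as higher. The same 2, CYP71B6 and CYP71B23, were those at an unadjusted p under 0.05, which 22.7% of all probe sets reached. Between cngc4 and ws2 limma called 0 of the 8, where 9.09% of all probe sets passed, and 2, CYP71B6 and CYP71B23, had an unadjusted p under 0.05 (23.9% of all probe sets). In cngc1 against ws2 limma called 0 (background 0.00678%), with 1 gene, CYP71B23, at an unadjusted p under 0.05 (7.32% of all). In akt1 against ws2 limma called 0 (background 0%), with 0 at an unadjusted p under 0.05 (5.06% of all). In cngc1 against akt1 limma called 0 (background 0.00678%), with CYP71B23 at an unadjusted p under 0.05 (11.2% of all). CYP51G2, tested only through its cngc1 signals, is not counted in any comparison with cngc1 or read against those shares. With 8 genes at most, counts of 0 to 2 do not set the P450 genes apart from the background.

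The medians of the 8 genes stayed near 0. They were -0.02 in cngc4, -0.09 in cngc1 and -0.02 in akt1 against ws2, beside -0.03, 0.01 and -0.02 over all probe sets tested. In cngc4 the median was 0.02 against akt1 and 0.06 against cngc1, beside -0.0040 and -0.04. The medians of comparisons with cngc1 include CYP51G2, tested only through its cngc1 signals. Over the 6 tested CYP71B genes, which leave it out, the median was -0.09 in cngc1 against ws2 and 0.08 in cngc4 against cngc1. With CYP51G2 left out, arrays of cngc4 lay above all cngc1 arrays for 2 genes, where 11.8% of all probe sets did so. They lay above all akt1 arrays for 2 of the 8, where 14.5% of all probe sets did so. Within groups, residual SDs on the log2 scale ran from 0.17 for CYP51G2 to 0.34 for CYP71B28, beside a median of 0.19 over all probe sets.

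Enzymes that often act after P450s on the same compounds are the UDP-glycosyltransferases, which add a sugar, and the glutathione transferases, which add glutathione. Against ws2, 2 of 24 tested UDP-glycosyltransferases were higher in cngc4 (UGT73B1 and UGT87A2) and 1, UGT72E3, was lower, with a median log2 fold change of 0.04, where 9.09% of all probe sets passed. Between cngc4 and cngc1, where 5.17% of all passed, 3 of the 24 were higher in cngc4, none was lower and 21 did not pass, with a median of 0.0057. They were UGT73B1, UGT73D1 and UGT87A2, and the same 3 were higher in cngc4 than in akt1, where 8.88% of all passed, with a median of 0.01. Of 12 glutathione transferases, 1 was higher in cngc4 than in ws2 (GSTU16) and 2 were lower (GSTU20 and GSTU28), with a median log2 fold change of -0.43. Against akt1 the same 1 was higher and the same 2 were lower, with a median of -0.28. Against cngc1, GSTU16 was higher, GSTU20 was lower and 10 did not pass, with a median of -0.10. The named genes of both families were chosen after their values were seen. The difference between these families and the P450 genes was not tested.

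**Figure D4:**
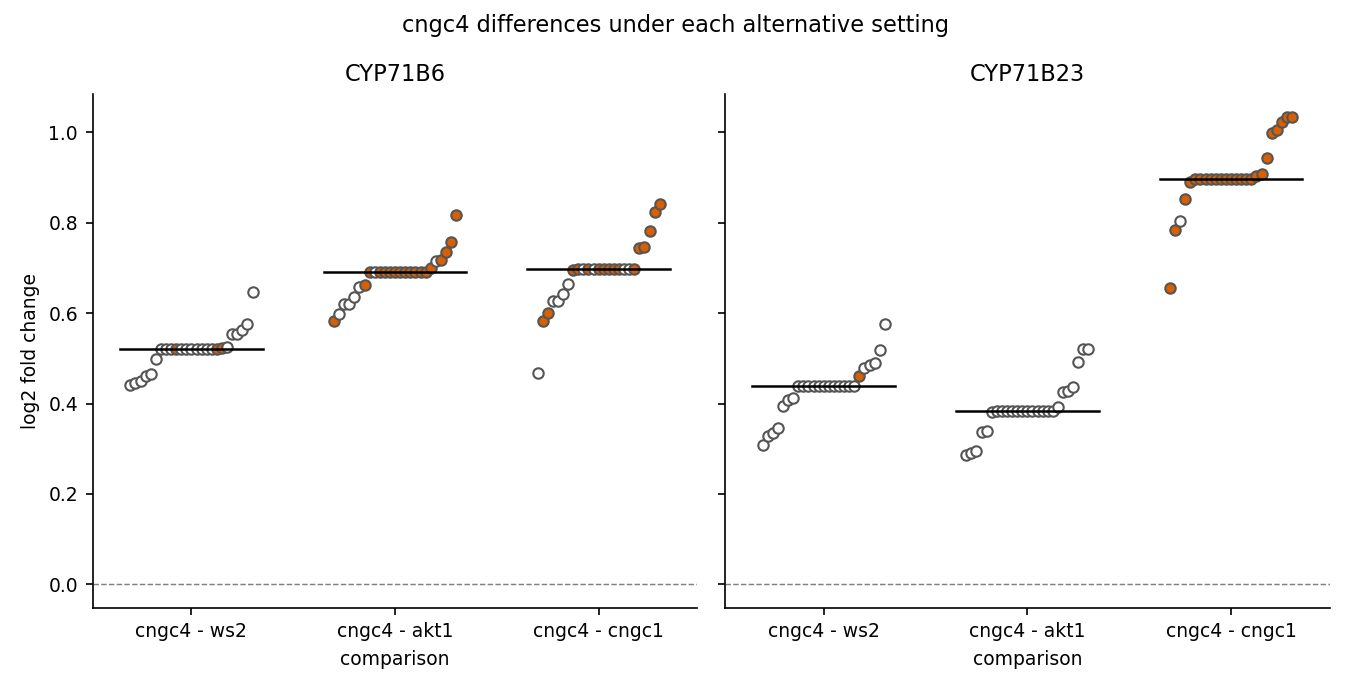
Log2 fold changes of CYP71B6 and CYP71B23 (y axis) in the 3 comparisons of cngc4 (x axis) under each of 25 alternative settings, with the reported value as a bar. Filled points had an adjusted p under 0.05. All points are above 0; CYP71B23 ran from 0.66 to 1.03 against cngc1 and CYP71B6 from 0.44 to 0.65 against ws2.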

How the data were processed

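Per the labels' protocols, the authors extracted root RNA with TriZOL and hybridised biotin-labelled cRNA. The deposited values are linear intensities, 1 for each probe set on each array. Their trimmed mean, with 2% cut at each end, is equal on every array, so they had been scaled before deposit; the summarising software was not given in the sources used here. Signals were taken as log2(signal + 16) after leaving out 64 control probe sets. Group means of the 4 genotypes were fitted over the 12 arrays with limma 3.58.1 (R 4.3.3) and a mean-variance trend, with two-sided tests. Exact permutation of 3 against 3 arrays was not run, as its smallest p is 0.1.

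All 23 genes were found in the gene table of TAIR10.1, used for names and gene order. Coordinates are not printed, since the sources used here do not give the array's build, and no sequences were used. The members, role lists and marker lists were chosen with earlier results of these data known. Values on every array were given for P450 genes that passed in any comparison, for CYP71B6 and for the 5 of highest mean signal; other genes were named for a small p in a mutant, a listed role or their place in a tandem row, and CYP71B28 and CYP51G2 were also given in full.

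Whether replicate numbers pair the arrays was checked from deviations from group means: 3 of 18 same-numbered pairs correlated above 0.1 (range -0.17 to 0.27), and the numbers were not used as pairs. No arrays held identical values. The alternatives changed the normalization (quantile, or medians set equal), the offset (none, or 64), the filter (none, or the 60th percentile), the eBayes settings, the weights of arrays, the arrays fitted (each left out in turn, the marked ones left out, or only those of the groups in question) and the threshold (a 2-fold change and an unadjusted p under 0.05), and added a replicate block or the repeat mark as a covariate. Figures were drawn with matplotlib 3.10.9.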

Additional observations from a re-analysis of the deposited data

How the results depend on the processing

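The counts of P450 genes called in cngc1 against ws2, akt1 against ws2 and cngc1 against akt1 were 0 in all 26 alternatives. For cngc4 against ws2 the count of 0 became 2 with array weights and 1 with only the groups compared, and 0 to 1 with an array left out. For cngc4 against akt1 the count of 1 became 2 with array weights, and 0 with no filter, the repeat mark as covariate, no marked arrays, or the unadjusted p with a 2-fold change; it was 0 to 2 with an array left out. For cngc4 against cngc1 the count of 2 became 1 with no filter, the repeat mark as covariate, no marked arrays or only the groups compared, 0 with the unadjusted p and 2-fold change, and 0 to 2 with an array left out. The F test's count of 1 became 0 with no filter, 2 with array weights, 2 with the replicate block, and 0 to 2 with an array left out. With the replicate block the counts of the 6 comparisons did not change. The calls over all probe sets, which set the background shares, moved more. Array weights raised them from 1340 to 2364 in cngc4 against ws2, from 1310 to 1757 against akt1 and from 762 to 988 against cngc1. The F test's calls rose from 935 to 1759 with array weights. With no filter the calls fell to 797 in cngc4 against akt1, 402 against cngc1 and 442 in the F test. Without cngc4 replicate 2 they fell from 1340 to 321 against ws2, from 1310 to 302 against akt1 and from 762 to 123 against cngc1. In cngc4 against ws2 they were also 670, 589 and 886 without ws2 replicate 1, 2 or 3, and 15 without the marked arrays. In cngc4 against akt1 they were 350 and 720 without akt1 replicate 2 or 3, 840 without cngc4 replicate 1 and 572 without the marked arrays. In cngc4 against cngc1 they were 248 without cngc1 replicate 3 and 424 without the marked arrays. The causes were not tested.

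Values that changed sign were small ones that passed in neither setting. CYP71B29 in cngc4 against ws2 was -0.017 with quantile normalization and -0.017 with the mark as covariate. In cngc1 against ws2 CYP71B29 was 0.0067 with array weights and 0.038 without marked arrays. CYP71B34 in cngc4 against ws2 was 0.0063 with median centring, 0.038 with array weights and 0.17 without marked arrays. CYP84A4 was 0.011 in cngc4 against ws2 with quantile normalization and -0.0036 against akt1 with array weights. With the mark as covariate, CYP71B28 was -0.11 in cngc1 and -0.10 in akt1 against ws2, CYP71B37 was -0.052 in cngc1, and CYP71B23 was -0.16 in akt1 (-0.11 without marked arrays). CYP71B28 in cngc4 against akt1 was 0.0056 with quantile normalization, 0.11 with the mark as covariate and 0.18 without marked arrays. Against cngc1 CYP71B28 was 0.045 with quantile normalization, 0.041 with median centring, 0.044 with array weights, 0.11 with the mark as covariate and 0.19 without marked arrays. In cngc1 against akt1 CYP71B28 was 0.0038 with an offset of 64, and CYP71B6 was 0.12 with array weights.

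With 1 array left out, the ranges that crossed 0 were as follows. In cngc4 against ws2 they were -0.068 to 0.31 for CYP71B28, -0.074 to 0.089 for CYP71B29, -0.14 to 0.069 for CYP71B34 and -0.16 to 0.038 for CYP84A4. In cngc1 against ws2 they were -0.018 to 0.39 for CYP71B28, -0.17 to 0.032 for CYP71B29, -0.26 to 0.050 for CYP71B34, -0.040 to 0.11 for CYP71B37, -0.32 to 0.055 for CYP71B6 and -0.24 to 0.016 for CYP84A4. In akt1 against ws2 CYP71B23 ran from -0.075 to 0.15. In cngc4 against akt1 they were -0.075 to 0.14 for CYP51G2, -0.20 to 0.18 for CYP71B28 and -0.068 to 0.14 for CYP84A4. In cngc4 against cngc1 they were -0.27 to 0.19 for CYP71B28, -0.031 to 0.18 for CYP71B29, -0.086 to 0.22 for CYP71B34 and -0.075 to 0.18 for CYP84A4. In cngc1 against akt1 they were -0.18 to 0.26 for CYP71B28, -0.0036 to 0.47 for CYP71B29, -0.15 to 0.22 for CYP71B6 and -0.16 to 0.10 for CYP84A4.

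The mean over several probe sets of a gene was not run, since no P450 gene has more than 1 here, and the F test was not run with only the groups compared. The 60th-percentile filter left 4 of the 8 genes. The number of arrays, 3 a group, limits the precision, and probe sets near the 40th percentile have folds whose size is not exact.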

Other observations

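A few P450 probe sets lay outside the rule. One that lists 2 CYP71B genes, and is therefore not named, read 33.6, 29.8 and 32.4 in ws2, 54.8, 15.6 and 25.9 in akt1, 38.5, 24.6 and 5.5 in cngc1, and 53.1, 75.8 and 43.9 in cngc4. All cngc4 arrays lay above all ws2 and cngc1 arrays, and akt1 overlapped with each of the others. Arrays of cngc4 lay above all ws2 arrays for 15% of all probe sets tested and above all cngc1 arrays for 11.8%. The log2 fold change of cngc4 against cngc1 was 1.00 and did not pass (limma adjusted p = 0.0742).

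Another that lists a P450 gene with a second gene read 8.5 to 10 in cngc4 and 0.9 to 14.4 on the other 9 arrays. CYP718, a P450 gene whose symbol has no subfamily letter, read 3.5 to 16.2 on 11 arrays and 42.1 on cngc4 replicate 3. CYP59 and CYP71, whose symbols also carry no subfamily letter, are cyclophilins and were left out.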
